A study of Mus musculus with 4 samples.

Results

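The ATF4 pathway and the unfolded protein response were followed in immortalised mouse embryonic fibroblasts (MEFs) with and without PA1, through 40 genes: the regulators and sensors of these responses, stress response targets, enzymes of amino acid synthesis, aminoacyl-tRNA synthetases, and folding and degradation factors of the endoplasmic reticulum (ER). The members were chosen by gene symbol, with earlier results of these data known. Their probe sets were all those whose platform annotation names a member alone. Of the 40, Pycr1 had no such probe set and was not analysed here, and the other 39 were among the 18193 genes named in this way. These 39 had 92 probe sets, 81 of which passed a filter that kept the brighter 50% of all probe sets, and each of the 39 passed it with at least 1. A gene was read through the probe set with the highest mean signal.

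All cells carried PA1 alleles flanked by loxP sites (PA1loxP/loxP). PA1 -/- cells had been infected with a retrovirus carrying Cre, a recombinase that cuts out DNA flanked by loxP sites, and PA1 +/+ cells with the vector alone. Both were grown in DMEM with serum and selected with puromycin. Each genotype had 2 Affymetrix arrays, numbered 1 and 2 in the labels, so the number of arrays limits the precision. No label says that these came from separate cultures, and any p-value therefore rests on a spread that may be technical. Only the PA1 -/- cells received Cre, so effects of Cre and of PA1 loss cannot be told apart, and the labels do not give the number of clones or embryos behind the line. PA1, read here as Pagr1a, is a subunit of histone methyltransferase complexes, and the study asked which genes it regulates.

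Misfolded proteins in the ER activate the sensors PERK, IRE1 and ATF6. PERK (gene Eif2ak3) and related kinases, among them GCN2, which senses uncharged tRNA, phosphorylate the initiation factor eIF2, which lowers general translation but raises translation of the transcription factor ATF4. ATF4 induces amino acid synthesis, tRNA charging and, with CHOP (Ddit3), stress effectors. IRE1 (Ern1) splices the Xbp1 transcript, and XBP1 and ATF6 induce ER chaperones and degradation factors. In fibroblasts, which secrete large amounts of matrix protein, the chaperones are abundant. The arrays measured transcript levels, so ATF4 translation, eIF2 phosphorylation and Xbp1 splicing were not measured.

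Known response elements of these pathways were found upstream of several members. They are shown here because they mark the genes whose signals are given further on. The ER stress response element (ERSE), through which ATF6 and XBP1 act, was searched as CCAAT, then 9 bases of any kind, then CCACG. The C/EBP-ATF response element (CARE), bound by ATF4 with a C/EBP partner, was searched as TGATGNAA, and the related element ERSE-II as ATTGG, 1 base of any kind, then CCACG. Both strands of the 250 bases before each start were searched in the RefSeq promoters of GRCm38.p6, which held 36 of the 40 members. Atf6, Cth, Wars and Manf were absent there and were not searched. The ERSE was found before 7 of the 36 members (19.4%) and before 35 of all 27025 genes (0.13%). The CARE was found before 9 members (25%) and before 3.91% of all genes, and ERSE-II before 1 member, Herpud1, and before 0.037% of all genes. The 7 members with an ERSE were Hspa5, Hsp90b1, Calr, Canx, Pdia6, Creld2 and Syvn1, and Hsp90b1 held 2 copies. The 9 with a CARE were Asns, Atf3, Chac1, Nupr1, Vldlr, Herpud1, Aars, Gars and Pycr1. The members were picked as genes of these pathways, so their shares beside those of all genes describe the list and are no test. A match describes these letters in this window and does not show that a factor bound there.

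Stretches with an ERSE or ERSE-II are written 5′ to 3′ on the strand of the gene, with the element in capitals, for 4 chaperone and folding genes that read lower in PA1 -/- cells at both numbers (Hspa5, Calr, Pdia6, Creld2), for the degradation gene Herpud1, and for Hsp90b1, which did not. They lie at chr2:34771995-34772073 (Hspa5, plus strand), chr8:84847045-84847123 (Calr, minus strand), chr12:17266461-17266539 (Pdia6, plus strand), chr15:88819490-88819568 (Creld2, plus strand), chr8:94386347-94386417 (Herpud1, plus strand) and chr10:86705503-86705686 (Hsp90b1, minus strand) of GRCm38.p6.
Hspa5: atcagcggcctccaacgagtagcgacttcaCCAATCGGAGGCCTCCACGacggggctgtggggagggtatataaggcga
Calr: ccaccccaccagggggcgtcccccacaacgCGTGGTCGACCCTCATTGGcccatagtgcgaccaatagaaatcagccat
Pdia6: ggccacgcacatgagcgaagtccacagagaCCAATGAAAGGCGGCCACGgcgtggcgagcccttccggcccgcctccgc
Creld2: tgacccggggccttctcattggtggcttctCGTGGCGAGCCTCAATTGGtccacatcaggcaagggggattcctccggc
Herpud1: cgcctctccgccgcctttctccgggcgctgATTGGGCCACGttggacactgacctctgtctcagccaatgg
Hsp90b1: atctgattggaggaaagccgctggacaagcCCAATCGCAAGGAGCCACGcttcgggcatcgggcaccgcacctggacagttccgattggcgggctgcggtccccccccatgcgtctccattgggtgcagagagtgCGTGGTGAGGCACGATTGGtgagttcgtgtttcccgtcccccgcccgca

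Stretches with a CARE, again in capitals and on either strand, are shown for Nupr1 and Vldlr, which had large differences at number 1, for Chac1 and Atf3, which did not read lower at both numbers, and for Asns, the classic amino acid response gene. They lie at chr7:126625543-126625610 (Nupr1, minus strand), chr19:27216790-27216857 (Vldlr, plus strand), chr2:119351019-119351086 (Chac1, plus strand), chr1:191183406-191183473 (Atf3, minus strand) and chr6:7693210-7693262 (Asns, minus strand) of GRCm38.p6.
Nupr1: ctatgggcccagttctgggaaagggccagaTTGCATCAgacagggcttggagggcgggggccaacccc
Vldlr: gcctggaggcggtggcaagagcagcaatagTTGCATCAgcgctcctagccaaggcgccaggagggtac
Chac1: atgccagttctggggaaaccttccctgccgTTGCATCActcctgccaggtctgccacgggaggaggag
Atf3: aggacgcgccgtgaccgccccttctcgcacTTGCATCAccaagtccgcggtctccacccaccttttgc
Asns: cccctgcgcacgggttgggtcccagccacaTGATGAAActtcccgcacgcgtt

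The arrays as a whole bear on every value that follows. Pagr1a read 1340.3 and 1389 in the PA1 +/+ arrays and 108 and 113 in the PA1 -/- arrays. Over 22519 tested probe sets, the 2 genotypes correlated (Pearson r of log2 signals) at 0.971 in number 1 and 0.977 in number 2, whereas the 2 numbers correlated at 0.918 in PA1 +/+ and 0.920 in PA1 -/- cells, so the differences within each number bear on each mean. All 9 fibroblast markers examined were among the tested genes, with summed signals from 88904 to 109339 in PA1 +/+ and from 79303 to 89061 in PA1 -/- arrays. Summed signals of 5 macrophage, 5 epithelial and 4 endothelial markers stayed between 107 and 698 in every array, and 9 of those 14 were below the filter. None was listed at 0, and Ptprc and Pecam1, which define leukocytes and endothelium, read at most 16.8 and 10.2. Others were brighter. Csf1r, a macrophage marker, read 94.9 and 91.3 in PA1 +/+ and 175 and 147 in PA1 -/- cells. Krt18, an epithelial marker, read 298 and 266 in the arrays numbered 1 and 11.4 and 27.6 in those numbered 2. Cd68 read 133 to 224, Epcam 112 to 190, Kdr 48.2 to 82.5, and Cdh1 160 in the PA1 +/+ array numbered 1.

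Of the 39 measured members, 23 were below 0 on the log2 scale, PA1 -/- minus PA1 +/+, against 46.7% of all 10714 tested genes. At both numbers 18 members were lower (46.2%, against 29.3% of all genes) and 8 were higher (20.5%, against 33.9%), while 13 went opposite ways. The median difference was -0.11 over the members and 0.02 over all genes. As the members were chosen with earlier results of these data known, these comparisons with all genes describe the list and are no test. In 10 members both PA1 -/- arrays read below both PA1 +/+ arrays, against 11.3% of all genes, and in 4 they read above, against 15%. No member passed limma (genotype as the only term, 2-sided, Benjamini-Hochberg adjusted p under 0.05 over all probe sets; smallest adjusted p = 0.9998). Neither did any other gene: the shares were 0% of probe sets and 0% of genes, Pagr1a included. At an unadjusted p under 0.05 they were 1.95% and 2.16%, and those genes held 1 member, Trib3. A dimmer probe set of Shmt2, through which the gene was not read, also lay under 0.05 (limma unadjusted p = 0.048). With 2 arrays per genotype, the smallest p of an exact permutation test is 0.333. Each difference below is therefore a measured difference between these arrays that did not pass, with its standard error (SE, 2 arrays per genotype) from the same fit. That fit had no term for number, so each SE and p-value also holds the difference between numbers. With such a term, 447 of the 22519 probe sets (1.98%) and 0 members passed. Differences are on the scale of log2(signal + 9.96), which understates changes of dim genes, fewer cells that express a gene and less of its RNA per cell cannot be told apart in these bulk samples, and signals of different genes cannot be ranked against each other.

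**Figure D1:**
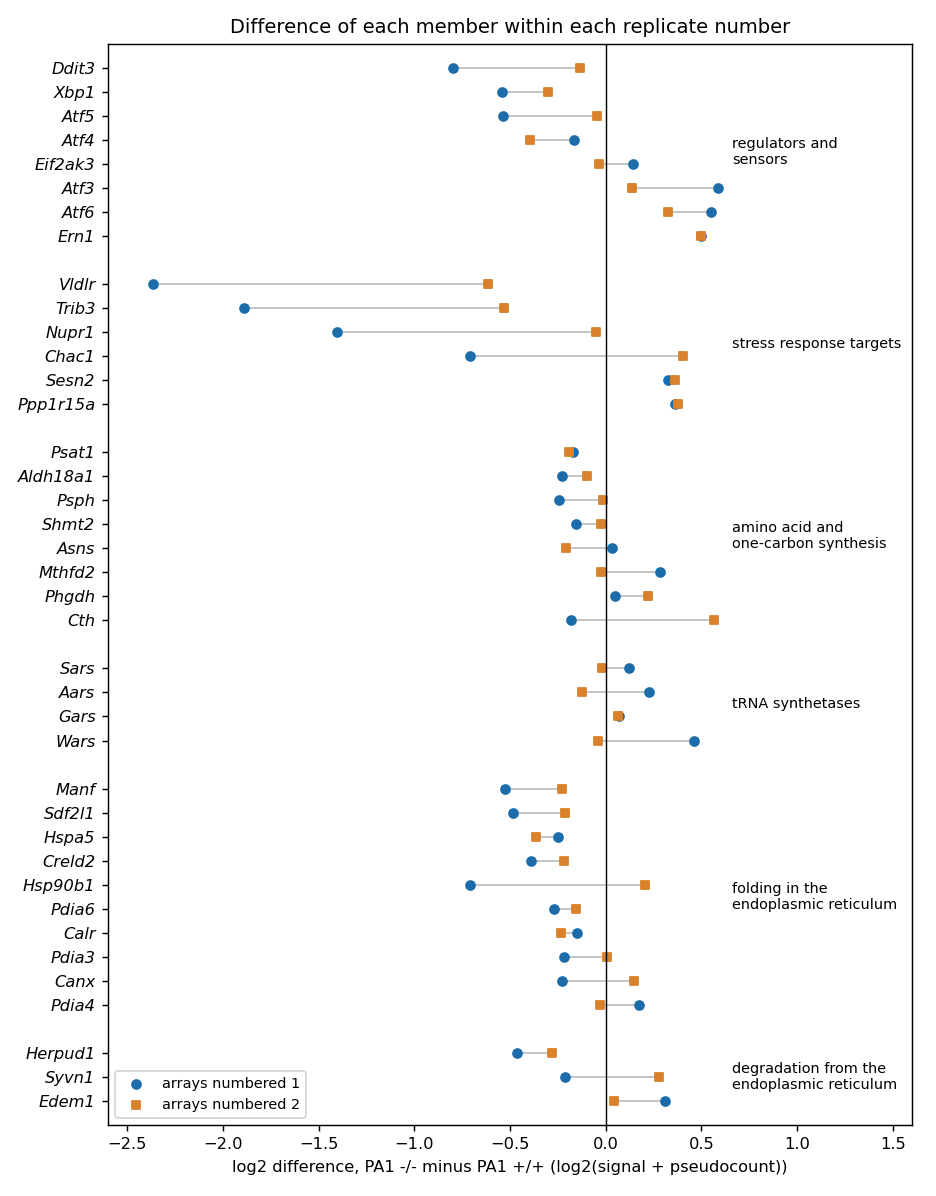
Log2 difference, PA1 -/- minus PA1 +/+, of the 39 members within the arrays numbered 1 (circles) and 2 (squares), by group of members; a line joins the 2 values of a gene. Stress response targets spread widest, from -2.37 to 0.41, while most folding genes of the ER lie left of 0 at both numbers.

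Large differences were few and lay at number 1. At least 2-fold lower in the PA1 -/- array numbered 1 were 3 members, Vldlr, Trib3 and Nupr1, against 2.47% of all genes. At number 2 there were 0, against 2.13% of all genes. No member was at least 2-fold higher at either number, against 1.36% and 0.896% of all genes. Vldlr passed the filter only through its PA1 +/+ arrays.

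**Figure D2:**
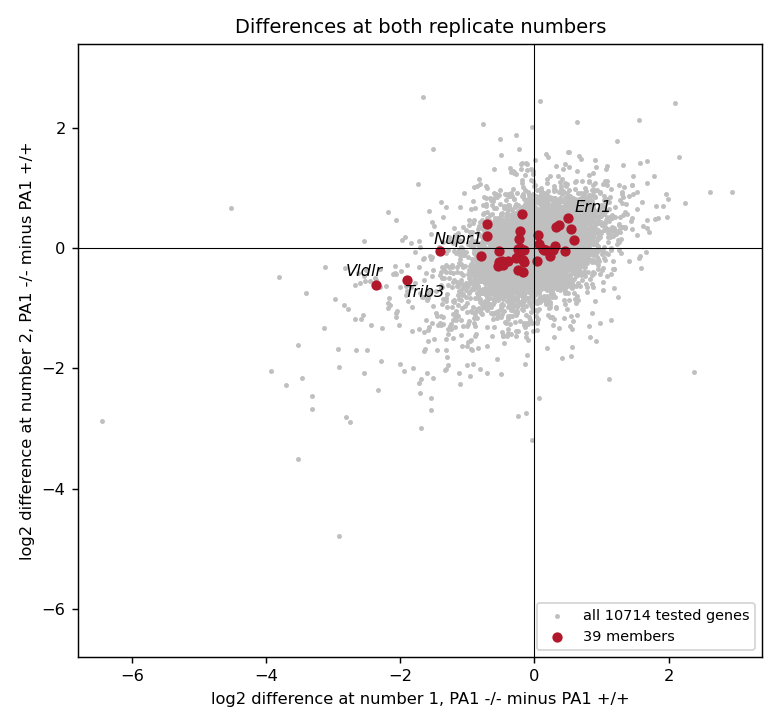
Log2 difference, PA1 -/- minus PA1 +/+, at number 1 (horizontal) and at number 2 (vertical), for all 10714 tested genes (grey) and the 39 members (red). Most members lie within 1 of 0 on both axes, and Trib3, Vldlr and Nupr1 lie to the left, at -1.89, -2.37 and -1.40 on the horizontal axis.

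Among the regulators and sensors, Atf4, Atf5, Ddit3 and Xbp1 read lower at both numbers in PA1 -/- cells, and Atf3, Atf6 and Ern1 higher. The median over the 8 was -0.11. Atf4, which encodes the central transcription factor of the integrated stress response, read 10365 and 11794 in the PA1 +/+ arrays and 9238 and 8975 in the PA1 -/- arrays numbered 1 and 2. Both PA1 -/- values lay below both PA1 +/+ values, and the differences were -0.17 and -0.39 at numbers 1 and 2 (mean -0.28, SE 0.149). A second tested probe set of Atf4 went opposite ways, with -0.59 at number 1 and 0.16 at number 2. Xbp1, the transcription factor gene that IRE1 activates by splicing, read 7751 and 6784 in PA1 +/+ and 5318 and 5507 in PA1 -/- cells. The groups did not overlap, with -0.54 and -0.30 within the numbers (mean -0.42, SE 0.167), and its 3 other probe sets differed by -0.42, -0.35 and -0.01. Ddit3, which encodes the pro-apoptotic factor CHOP, read 2003 and 1008 against 1147 and 918. The PA1 +/+ array numbered 1 stood apart from the other 3 arrays, and the differences were -0.80 at number 1 and -0.13 at number 2 (mean -0.47, SE 0.401). Without that array the Ddit3 difference was 0.03. Here and below, a value given without 1 array also holds the difference between numbers, since no term for number was fitted. A second probe set gave -0.98 and -0.26.

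Atf5, a factor related to ATF4, read 1283 and 1959 in PA1 +/+ and 882 and 1895 in PA1 -/- cells. The groups overlapped, with -0.54 at number 1 and -0.05 at number 2. Atf3, a repressor and activator induced by ATF4, read 659 and 176 in PA1 +/+ and 995 and 195 in PA1 -/- cells. Its arrays split by number and not by genotype: number 2 minus number 1 was -1.85 in PA1 +/+ and -2.30 in PA1 -/- cells on the log2 scale, against 0.36 between genotypes (SE 0.986).

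The ER sensors differed among themselves. Ern1, which encodes IRE1, read 306 and 298 in PA1 +/+ and 436 and 425 in PA1 -/- cells, 0.50 higher at either number (SE 0.250). Its other tested probe sets were dim and gave 0.92 and -0.02, and 2 below the filter gave 0.14 and -0.25. Atf6, the sensor that becomes a transcription factor after cleavage in the Golgi, read 369 and 489 against 545 and 615. Both PA1 -/- arrays were above both PA1 +/+ arrays, with 0.55 and 0.32 within the numbers (mean 0.44, SE 0.281), and its other probe sets gave means of 0.30 and 0.21. The Atf6 difference was 0.24 without the PA1 +/+ array numbered 1. Eif2ak3, which encodes PERK, read 581 and 698 against 641 and 681, a difference of 0.05 (SE 0.254) that was -0.01 after quantile and after cyclic loess normalization.

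**Figure D3:**
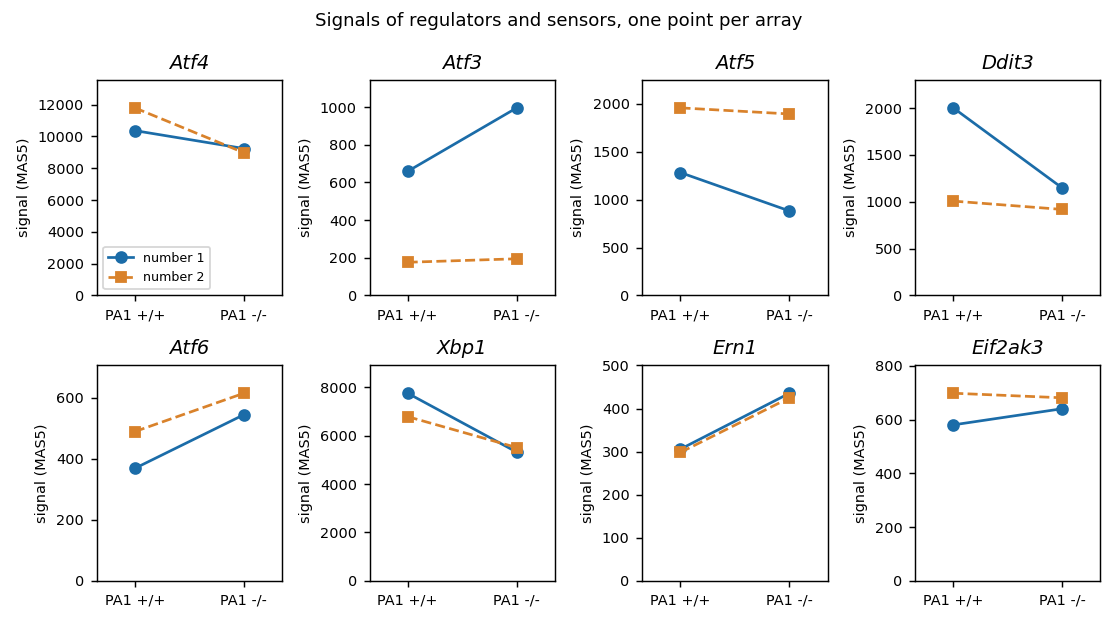
MAS5 signal (vertical axes, linear, from 0) of the 8 regulators and sensors in each array; lines join the PA1 +/+ and PA1 -/- arrays of the same number. Xbp1 reads 7751 and 6784 in PA1 +/+ and 5318 and 5507 in PA1 -/- cells, while Atf3 splits by number.

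The stress response targets held the members with the largest differences, Vldlr, Trib3 and Nupr1, each larger at number 1. Of the 6, 3 were lower and 2 higher at both numbers, and the median was -0.44 (-1.06 at number 1 and 0.16 at number 2). That median was -0.044 without the PA1 -/- array numbered 1, -0.20 without the PA1 +/+ array numbered 1, -0.66 and -0.83 without the PA1 +/+ or PA1 -/- array numbered 2, and -0.15 over the 5 targets that a filter keeping 30% of probe sets left. Trib3, a pseudokinase gene that CHOP and ATF4 induce, read 943 and 527 in PA1 +/+ and 247 and 362 in PA1 -/- cells. The groups did not overlap, with differences of -1.89 at number 1 and -0.53 at number 2 (mean -1.21, SE 0.402, limma adjusted p = 0.9998). Its second probe set gave -1.63 at number 1 but 0.02 at number 2. Without the PA1 +/+ array numbered 1 the Trib3 difference was -0.80, and without the PA1 +/+ array numbered 2 it was -1.63.

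Nupr1, a chromatin-binding stress protein gene, read 2014 and 1307 in PA1 +/+ and 755 and 1262 in PA1 -/- cells. The groups did not overlap, but the difference was -1.40 at number 1 and -0.05 at number 2 (mean -0.73, SE 0.381), and the second probe set gave -1.25 and -0.10. Without the PA1 +/+ array numbered 1 the Nupr1 difference was -0.42, and without the PA1 -/- array numbered 1 it was -0.36. Vldlr, a lipoprotein receptor gene induced through PERK and ATF4, read 413 and 80.8 in PA1 +/+ and 72.0 and 49.4 in PA1 -/- cells. The PA1 +/+ array numbered 1 was far above the other 3, and the mean difference of -1.49 (SE 0.789) was -0.38 without it. Without the PA1 +/+ array numbered 2 it was -2.6. The PA1 -/- mean of Vldlr, 60.7, lay below the filter's boundary of 62.8, so the gene was tested only because of its PA1 +/+ arrays. Its 5 probe sets below the filter were all lower at number 1, from -2.51 to -0.47, and ran from -0.97 to 0.78 at number 2. Of the 9 fibroblast markers, Col1a1, Pdgfra and Pdgfrb were also highest in the PA1 +/+ array numbered 1, Pdgfra with 1515 and 357 in PA1 +/+ and 134 and 210.3 in PA1 -/- cells. Col1a2, Vim, Fn1 and S100a4 were highest in the PA1 +/+ array numbered 2, and Col3a1 and Thy1 in a PA1 -/- array. Their part in these results was not tested.

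Chac1, a glutathione-degrading enzyme gene that is among the most responsive ATF4 targets, went opposite ways: it read 1337 and 1107 in PA1 +/+ and 813 and 1470.2 in PA1 -/- cells, -0.71 at number 1 and 0.41 at number 2. The remaining targets were higher. Ppp1r15a, which encodes the eIF2 phosphatase subunit GADD34, read 1224 and 1258 in PA1 +/+ and 1575 and 1639 in PA1 -/- cells. The groups did not overlap, with 0.36 and 0.38 at the 2 numbers (mean 0.37, SE 0.217). Sesn2, which encodes sestrin-2, an inhibitor of mTORC1, read 257 and 371 against 325 and 479. It was 0.32 and 0.36 higher within the numbers, although the groups overlapped (SE 0.348), and a second probe set gave 0.28 and -0.16. The Sesn2 difference was 0.086 without the PA1 +/+ array numbered 1 and 0.068 without the PA1 -/- array numbered 2, and it was 0.60 and 0.62 without the other arrays.

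**Figure D4:**
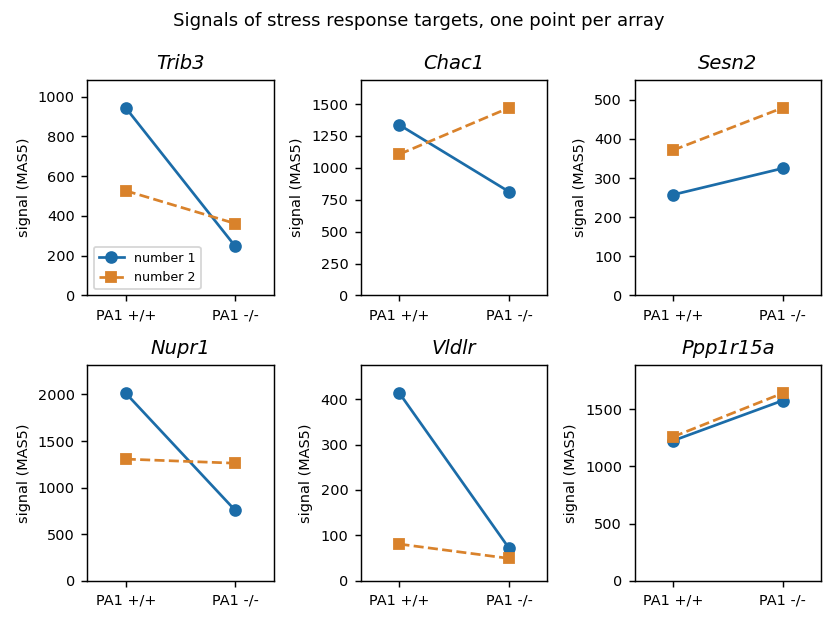
MAS5 signal (vertical axes, linear, from 0) of the 6 stress response targets in each array; lines join the PA1 +/+ and PA1 -/- arrays of the same number. The PA1 +/+ array numbered 1 is the highest for Trib3 (943), Nupr1 (2014) and Vldlr (413), whereas Ppp1r15a and Sesn2 are higher in PA1 -/- cells at both numbers.

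Enzymes of amino acid synthesis, the classical ATF4 programme, differed little. The median over the 8 measured was -0.09, the range -0.18 to 0.19, and 4 were lower and 1 higher at both numbers. The median turned to 0.0037 without the PA1 +/+ array numbered 1 and to 0.021 without the PA1 -/- array numbered 1. After median scaling 2 were lower at both numbers and after cyclic loess 3. Asns, which encodes asparagine synthetase, read 5875 and 9343 in PA1 +/+ and 6006 and 8089 in PA1 -/- cells, 0.03 and -0.21 within the numbers. Its arrays were ordered by number, with number 2 higher by 0.67 and 0.43. Psat1, the aminotransferase of serine synthesis, read 9734 and 10530.0 against 8638 and 9203. The groups did not overlap, with -0.17 and -0.19 (SE 0.145). In a second probe set they overlapped, with -0.34 and 0.02.

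The other serine synthesis enzymes were Phgdh, the dehydrogenase that opens the pathway, and Psph, the phosphatase that closes it. Phgdh read 8549 and 9102 against 8831 and 10599, and its 4 probe sets gave differences from 0.01 to 0.22, the brightest 0.13, which was 0.0016 without the PA1 -/- array numbered 2. Psph read 3134 and 1765 against 2644 and 1747, with number 2 lower by 0.82 and 0.59. Shmt2 and Mthfd2 pass serine carbon into mitochondrial folate metabolism. Shmt2 read 4813 and 6172 against 4314 and 6075 (-0.09), and its next brightest probe set gave -0.13. Its 2 dimmest probe sets gave 0.43 and -0.997. Mthfd2 read 2719 and 2788 against 3307 and 2737 (0.28 and -0.03 within the numbers).

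Aldh18a1, which makes the proline precursor, read 3209 and 2861 against 2736 and 2675. The groups did not overlap, with a difference of -0.16 (SE 0.196), and its 5 probe sets ran from -0.31 to 0.04. Without the PA1 +/+ array numbered 1 it was -0.080. Cth, the cysteine-forming enzyme, read 590.1 and 283 against 519 and 424, with -0.18 at number 1 and 0.57 at number 2.

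The tRNA synthetase genes, which charge tRNAs with amino acids, were close to equal. All 4 had mean differences above 0, under each scaling tried, with a median of 0.06, and 1, Gars, was higher at both numbers (2 of the 4 after quantile, median or cyclic loess scaling). Gars, for glycine, read 7125 and 8714 in PA1 +/+ and 7464 and 9117 in PA1 -/- cells (0.07 at either number). Wars, for tryptophan, read 2023 and 2259.8 against 2788 and 2196 (0.46 and -0.04), and 2 of its 3 other probe sets were higher at both numbers. The Wars difference of 0.21 was 0.038 without the PA1 -/- array numbered 1. Aars, for alanine, read 5505 and 5078 against 6444 and 4662 (0.23 and -0.12), and Sars, for serine, 5390.2 and 5435 against 5869 and 5359 (0.12 and -0.02). In each of the 4 the groups overlapped.

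Most folding genes of the ER read lower in PA1 -/- cells. Of the 10, 9 were below 0 (7 after quantile normalization, 8 after median scaling and after cyclic loess), and 6 were lower at both numbers under each of these scalings. The median was -0.23, at -0.26 within number 1 and -0.18 within number 2, and 0 were higher at both (1 after median scaling). After quantile normalization, median scaling and cyclic loess the median was -0.176, -0.183 and -0.205. Without the PA1 +/+ array numbered 1 the median was -0.13, with 7 of the 10 below 0. Hspa5, which encodes BiP, the main ER chaperone and a brake on the sensors, read 15579.6 and 13996 in PA1 +/+ and 13116 and 10886 in PA1 -/- cells. Both PA1 -/- arrays were below both PA1 +/+ arrays, with -0.25 and -0.36 within the numbers (mean -0.31, SE 0.160). Its other probe sets gave -0.46 and -0.25 at number 1 and 0.08 and -0.04 at number 2. The Hspa5 difference was -0.17 without the PA1 -/- array numbered 2 and -0.20 after quantile normalization.

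Calr, the lectin chaperone calreticulin, read 12179 and 11978 against 10975 and 10173. Its groups did not overlap, and its 3 probe sets all lay lower at both numbers, with means from -0.32 to -0.19. The brightest gave -0.19, and -0.099 after quantile normalization. Pdia6, a disulfide isomerase that also binds the sensors, read 7368 and 7297 against 6105 and 6552. It too had no overlap between groups (-0.27 and -0.16 within the numbers, SE 0.155).

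Manf, a secreted ER stress protein gene, read 10097 and 6977 in PA1 +/+ and 7011 and 5949 in PA1 -/- cells. Sdf2l1, which assists BiP, read 1396 and 894 against 995 and 769. Creld2, a disulfide isomerase-like gene, read 4464 and 2258 against 3409 and 1938. These 3 were lower at both numbers, by 0.53 and 0.23, by 0.49 and 0.21, and by 0.39 and 0.22 on the log2 scale, but number 2 was also lower than number 1 in both genotypes and the groups overlapped. Their standard errors, 0.240, 0.329 and 0.453, hold that difference between numbers. Without the PA1 +/+ array numbered 1 the differences of Manf, Sdf2l1 and Creld2 were -0.11, -0.031 and 0.19. These values hold the difference between numbers as well, because the PA1 +/+ array left was the lower one, numbered 2.

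The other folding genes had no common direction. Hsp90b1, which encodes the ER chaperone GRP94, read 8824 and 5859 in PA1 +/+ and 5399 and 6752 in PA1 -/- cells (-0.71 and 0.20), although its second probe set was lower at both numbers (-0.53 and -0.29). Canx, the membrane-bound lectin chaperone calnexin, read 8671 and 8166 against 7412 and 9049.5 (mean -0.04, but 0.024 after quantile, 0.011 after median and 0.00092 after cyclic loess scaling), and its other probe sets gave 0.32 and -0.27. Pdia3, the isomerase that works with both lectin chaperones, read 10992 and 11584 against 9448 and 11620.3 (-0.22 and 0.00), with 0.20 by a dim probe set. Pdia4 read 956 and 1809.8 against 1081 and 1775, a split by number of 0.91 and 0.71, with 0.07 between genotypes.

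Degradation of ER proteins was represented by 3 members. Herpud1, a membrane component of the degradation complex, read 2608 and 1702 in PA1 +/+ and 1887 and 1398 in PA1 -/- cells. It was lower at both numbers, by 0.47 and 0.28, and by 0.39 and 0.16 with a second probe set, although the groups overlapped (SE 0.318). The mean of -0.37 was -0.067 without the PA1 +/+ array numbered 1 and -0.68 without the PA1 +/+ array numbered 2. Edem1, a mannosidase-like gene that sorts glycoproteins for degradation, read 1321 and 1392 against 1639 and 1436, with no overlap and a difference of 0.18 (SE 0.225), which was 0.082 without the PA1 -/- array numbered 1. A second probe set gave 0.06 and 0.35, with overlapping groups. Syvn1, the ubiquitin ligase of this route, read 1711 and 1012 against 1476 and 1231 (-0.21 and 0.28), and its other probe set went the opposite way at both numbers (0.09 and -0.29).

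**Figure D5:**
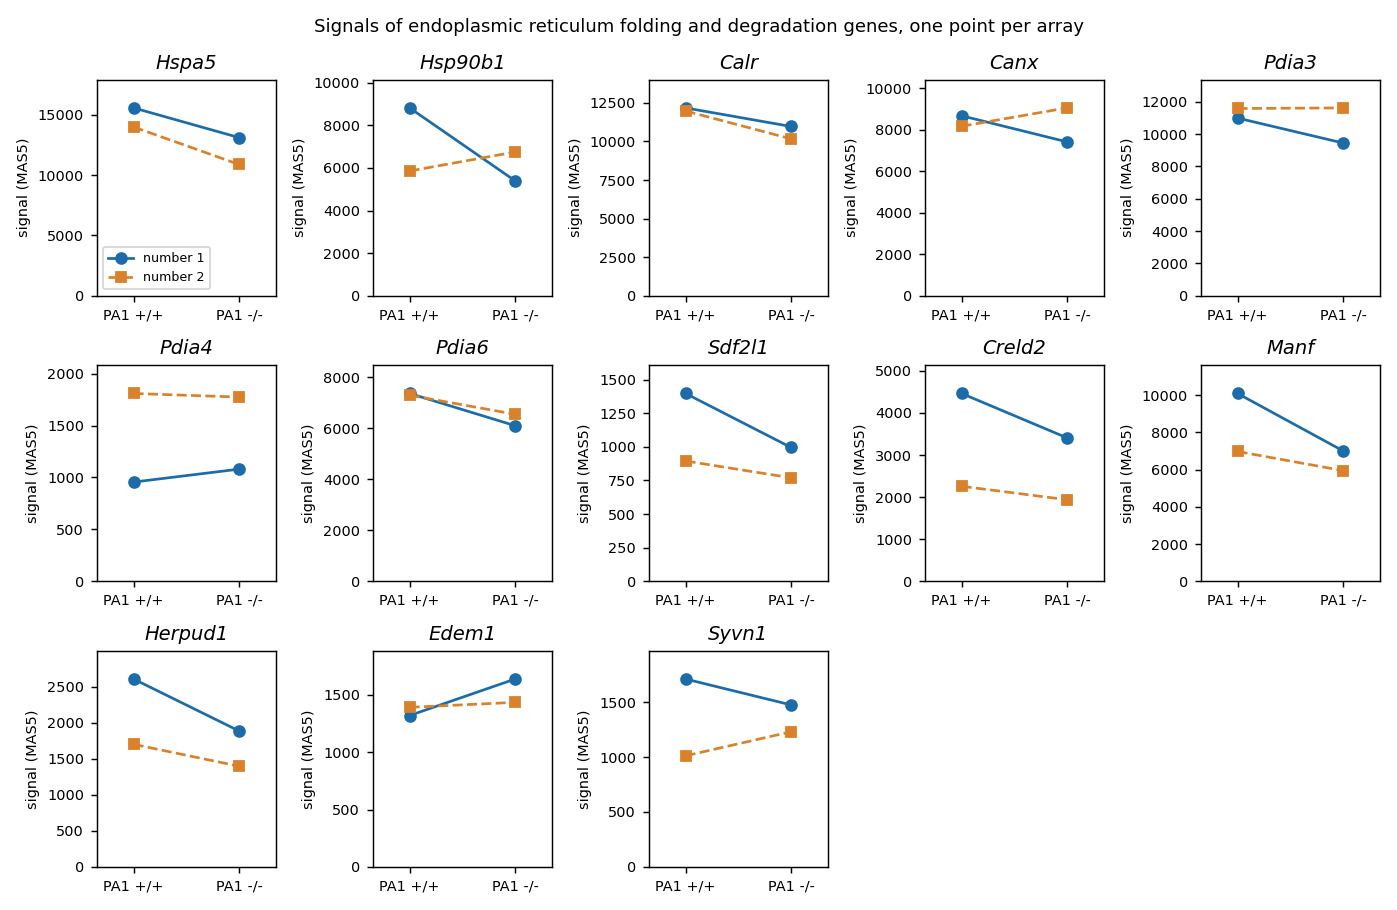
MAS5 signal (vertical axes, linear, from 0) of the 10 folding and 3 degradation genes of the ER in each array; lines join the PA1 +/+ and PA1 -/- arrays of the same number. Both lines slope down for Hspa5, Calr, Pdia6, Sdf2l1, Creld2, Manf and Herpud1, and for Hsp90b1, Canx and Syvn1 the line of number 1 slopes down and that of number 2 up.

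Genes with the response elements could be set against the signals. Of the 7 members with an ERSE, 6 were below 0, against 46.7% of all genes, and 4 lower at both numbers, against 29.3%. Their median was -0.21, and all but Syvn1 are folding genes whose values were described above. The 6 other tested genes with an ERSE had a median of 0.04, with 2 below 0. Of the 8 measured members with a CARE, 5 were below 0, against the same 46.7%, with a median of -0.12 over the 8. Vldlr, which passed the filter only through its PA1 +/+ arrays, was among the 5. The 188 other tested genes with a CARE had a median of -0.01, with 97 below 0. These gene sets were drawn up after the signals had been seen.

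Pathway genes outside the 40 members were read from a wider list of 57, also chosen with earlier results known, of which 53 were tested. The median was -0.03. At both numbers 21 were lower (39.6%, against 29.3% of all genes) and 14 higher (26.4%, against 33.9%). In limma 0 passed, as 0% of all genes did, and 1, Ddit4, had an unadjusted p under 0.05, against 2.16% of all genes. In the 15 other folding and degradation genes of the ER the median was -0.24, with 11 lower (73.3%) and 1 higher (6.67%) at both numbers. The largest differences among them were in Os9, a lectin of ER degradation, Sec61b, a subunit of the protein-conducting channel, and Dnajc3, a co-chaperone of BiP. Os9 read 1555 and 2029.6 in PA1 +/+ and 1064 and 1555 in PA1 -/- cells, Sec61b 13204 and 10605 against 10798 and 7884, and Dnajc3 1815 and 1376 against 1571 and 993. Each was lower within either number, with -0.54 and -0.38 for Os9, -0.29 and -0.43 for Sec61b, and -0.21 and -0.47 for Dnajc3.

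The 11 other ATF4 and CHOP targets had a median of -0.14, with 4 lower and 4 higher at both numbers. Ddit4, which encodes the mTORC1 inhibitor REDD1, read 2576 and 2629.8 in PA1 +/+ and 898 and 1344 in PA1 -/- cells (-1.51 and -0.96 within the numbers, mean -1.24, SE 0.280). Its groups did not overlap, but with genotype as the only term it missed the adjusted threshold (limma adjusted p = 0.9998). When same-numbered arrays were treated as pairs, Ddit4 passed (limma adjusted p = 0.00581). Its call therefore depended on this pairing, and the labels do not say what same-numbered arrays have in common. Pck2, mitochondrial PEP carboxykinase, was lower at both numbers (-0.74 and -0.44, SE 0.355), and the amino acid transporter gene Slc7a5 higher (0.52 and 0.27, SE 0.346).

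The 15 other cytosolic tRNA synthetases had a median of 0.04, with 4 lower and 5 higher at both numbers. Rars read 4973 and 5368 in PA1 +/+ and 6045 and 7308 in PA1 -/- cells (0.28 and 0.44 within the numbers, SE 0.184). Qars was higher by 0.33 and 0.19 on the log2 scale, and Tars differed by -0.17 and -0.19. The 12 other regulators had a median of 0.06, with 2 lower and 4 higher at both numbers. Creb3l1, an ER-anchored transcription factor gene, read 877 and 87.8 in PA1 +/+ and 588 and 69.3 in PA1 -/- cells, a split by number far larger than that by genotype (-0.57 and -0.30, SE 1.42). Mbtps2, a protease that releases ATF6, differed by 0.23 and 0.44, and Eif2ak4, which encodes GCN2, by 0.13 and 0.36.

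The difference between numbers was larger than that between genotypes for 22 of the 39 members (56.4%), against 67.5% of all genes. Number 2 was above number 1 in both genotypes for 12 members, Atf5, Pdia4 and Asns among them, and below it for 15, with Atf3, Creld2 and Psph among them. For Trib3, Nupr1, Chac1 and Hsp90b1 number 2 was below number 1 in PA1 +/+ cells (-0.83, -0.62, -0.27 and -0.59) and above it in PA1 -/- cells (0.53, 0.73, 0.85 and 0.32). With 1 array per genotype and number, whether the genotype difference itself differed between numbers could not be tested.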

How the data were processed

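Total RNA was hybridised to 4 arrays, 2 per genotype. The deposited intensity values were linear probe set signals made by the authors with MAS5, per the submitters' processing notes; its version and settings were not stated there. Each array had the same 2% trimmed mean, 500.0, so a change shared by most genes would not show. After 64 control probe sets were left out, 45037 remained, and 3 that name a member together with another gene were not used. Signals were taken as log2(signal + 9.96), the 20th percentile of all values, and the upper 50% by mean (22519 probe sets) were tested with limma 3.58.1 in R 4.3.3 (lmFit, eBayes with an intensity trend; genotype only). Simulated data, with and without a difference between numbers, were also fitted, but their outcome is not given and no result here rests on it. Samples were grouped by the labels' titles. Members, gene lists, naming rule and motifs were chosen with earlier results of these data known: all 40 members are accounted for, and other pathway genes are named where among the 3 largest differences of their group with 1 direction at both numbers. Alternatives were 3 normalizations, pseudocounts of 1 and 64.9 (the median), other filters (none, or the upper 30%), robust eBayes, eBayes lacking the trend, probe set means, a block by replicate number, and each array left out in turn. RefSeq promoters came from GRCm38.p6. Figures used matplotlib 3.10.9 in Python 3.11.15.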

Additional observations from a re-analysis of the deposited data

How the results depend on the processing

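No member was called under any alternative run. With the replicate number as a block (replicate block), 447 probe sets (1.98% of 22519, in 266 genes) passed limma against 0 without it, but 0 members; 11 of the 39 members (28.2%) had an unadjusted p under 0.05, as had 1830 of 10714 genes (17.1%), and the smallest adjusted p of a member, that of Trib3, was 0.0504. Ddit4 passed (adjusted p = 0.00581). Deviations of same-numbered arrays from their group means correlated at 0.80 over probe sets, but no label says what a number shares, and 2 pairs do not settle it. The members' median ran from -0.19 to -0.03 over all alternatives, and 16 to 21 members were lower at both numbers.

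Leaving out an array turned the sign of 19 of the 39 members and moved 13 others by over 1.5 times. These fits had no term for number, so with 1 array missing the difference between numbers entered each value. Gars, for example, differed by 0.07 at either number and yet counts among the 19. The differences of the 19 differences ran from -0.79 to 1.51 (Atf3), -0.84 to 0.26 (Atf5), -0.96 to 0.027 (Ddit3), -0.079 to 0.18 (Eif2ak3), -0.57 to 0.27 (Chac1), -0.42 to 0.25 (Asns), -0.54 to 0.28 (Psph), -0.34 to 0.16 (Shmt2), -0.0084 to 0.26 (Mthfd2), -0.32 to 0.71 (Cth), -0.18 to 0.28 (Aars), -0.079 to 0.21 (Gars), -0.014 to 0.12 (Sars), -0.55 to 0.043 (Hsp90b1), -0.18 to 0.10 (Canx), -0.26 to 0.042 (Pdia3), -0.38 to 0.53 (Pdia4), -0.79 to 0.19 (Creld2) and -0.34 to 0.41 (Syvn1). With 1 array left in a group, that array is assumed to vary like the others.

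Other settings turned 4 members with differences near 0, and the cause was not tested. Quantile normalization gave -0.0064 (Eif2ak3), 0.024 (Canx), 0.0023 (Pdia3) and -0.0088 (Syvn1), cyclic loess -0.013 (Eif2ak3), 0.00092 (Canx) and -0.011 (Syvn1), median scaling 0.011 (Canx), and averaging the probe sets of each gene 0.0015 (Canx), 0.046 (Pdia3) and -0.032 (Syvn1). Dim signals limit Vldlr most: 3 of its 4 values lay near the filter's boundary of 62.8.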
